A study of Homo sapiens with 18 samples.

Results

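The comparison described here was between HAP1 cells carrying an ATG7 knockout (ATG7KO) and the parental line (WT), both growing in full medium. Its members were the 3 libraries titled ATG7KO and the 3 titled WT that had no starvation treatment, 6 of the 18 libraries of the series. HAP1 is a near-haploid, adherent human cell line that descends from KBM-7, a line of chronic myeloid leukaemia. Full medium was Iscove's modified Dulbecco's medium with 10% heat-inactivated fetal calf serum and antibiotics. The other groups were WT and ATG7KO cells starved for 6 h in EBSS (Earle's balanced salts, without amino acids or serum), and an RB1CC1KO-labelled line in both media. Polyadenylated RNA from independent biological replicates was sequenced. The labels do not say how many clones stand for a genotype or how the knockout was made, so losing ATG7 and anything else that sets these 2 lines apart cannot be told apart.

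Autophagy delivers cytoplasm and organelles to lysosomes inside double-membrane vesicles called autophagosomes. ATG7 is the E1-like enzyme of this pathway: it activates the ubiquitin-like protein ATG12 for its transfer to ATG5 and the ATG8 proteins (LC3 and GABARAP) for their transfer to membrane lipid. Cells lacking ATG7 are widely used as autophagy-deficient cells, also in rich medium, where basal autophagy turns over damaged proteins and organelles.

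Reads in genes ranged from 11994110 to 19073798 over the 6 libraries, reads in no gene made up 11.2 to 15.1% of the aligned reads, and mitochondrial transcripts took 3.24 to 4.26% of reads in genes. The replicate pairs of the 2 groups differed by more than sampling noise (chi-square per degree of freedom 2.83 to 6.46), so no library repeated another. Some blood-cell markers were absent from both lines, although HAP1 descends from a leukaemia: PTPRC (CD45), GATA1 and SPI1 had 0 reads in all 6 libraries. Of 33 haematopoietic markers 10 were at 0 throughout, but others were expressed. TAL1 stood at 34.6 to 41.1 CPM (TMM-scaled reads relative to the size of the library) in WT and 9.41 to 10.9 in ATG7KO. The summed CPM of that list was 147 to 160 in WT and 102 to 106 in ATG7KO. The mesenchymal cadherin CDH2 lay at 86.7 to 105 CPM and the epithelial cadherin CDH1 at no more than 0.198 CPM.

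ATG7 was examined first because it checks the labels. Its level was 14.2, 15.7 and 16.8 CPM in WT and 4.51, 3.68 and 3.87 CPM in ATG7KO, with no overlap. The log2 fold change was -1.95 (SE 0.12, adjusted p = 8.8e-15). The gene lies on chromosome 3 (11272309 to 11557665, plus strand, GRCh38). Counts per gene do not show which exons the remaining reads came from. In the RB1CC1KO-labelled line ATG7 stood at 16.2 ± 0.433 CPM (SD, n = 3).

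Of 15179 genes tested, 1599 (10.5%) differed between the lines at an adjusted p below 0.05, the threshold for a call throughout. In ATG7KO 678 genes (4.47% of those tested) were higher and 921 (6.07%) were lower. Most differences were small, since 379 of the higher genes and 564 of the lower ones changed by less than 1.5-fold. Large losses outnumbered large gains: 53 genes were lower by 16-fold or more and 9 were higher by that much. At the 4-fold level the counts were 123 lower and 54 higher. Of the 407 genes called with at least a 2-fold difference (2.68% of those tested), 328 kept the call when each of the 6 libraries was left out in turn. Of all 1599 called genes 785 did, 329 of them higher and 456 lower. The total fell to 1070 genes without WT replicate 1, the lowest of the 6 counts. The median log2 fold change of all tested genes was -0.003. For 4405 genes (29.0%) the CPM of the 2 groups did not overlap, so separation alone was common.

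**Figure D1:**
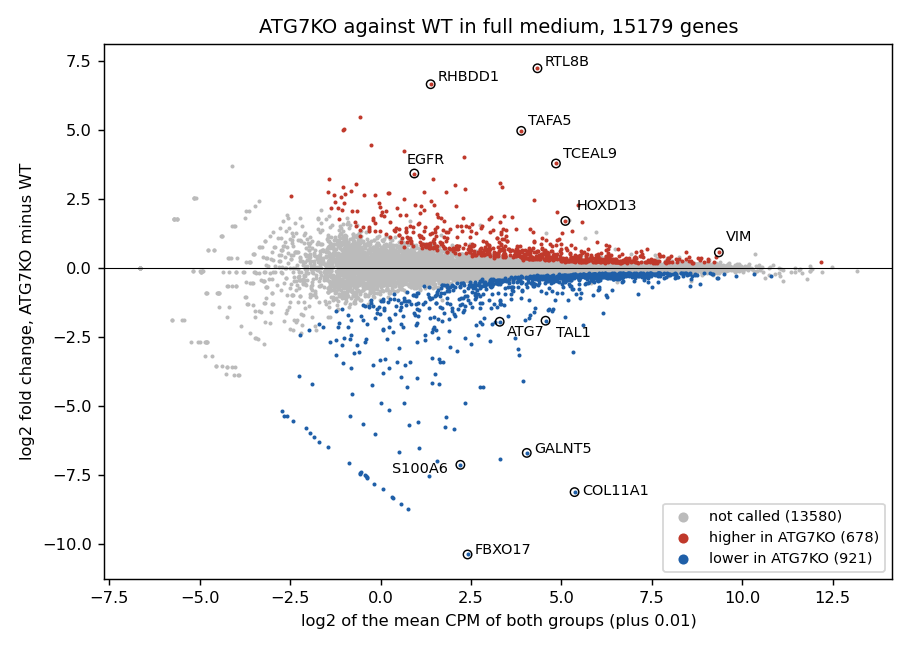
Each point is a tested gene, with the log2 of its mean CPM over WT and ATG7KO in full medium (plus 0.01) on the x axis and the log2 fold change (ATG7KO minus WT) on the y axis. Red points are the 678 genes called higher and blue points the 921 called lower, and the lower genes reach further from 0 than the higher ones.

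A set of genes was on in WT and nearly silent in ATG7KO. In all, 12 protein-coding genes had at least 100 reads over the 3 WT libraries and at most 3 over the 3 ATG7KO libraries, and the reverse held for 1 gene, RHBDD1. RHBDD1 encodes a rhomboid protease of the endoplasmic reticulum. It had 2 reads over the WT libraries and 270 over the ATG7KO libraries. It stood at 5.01, 5.03 and 5.43 CPM in ATG7KO against 0.146, 0 and 0 in WT, a ratio of 120 (95% counting interval 32.8 to 993). The fitted log2 difference of 6.66 moved to 9.37 without WT replicate 1 and to 5.94 without WT replicate 2, and the call held.

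FBXO17, a substrate receptor of SCF ubiquitin ligases, went from 488 WT reads to none. Its WT levels were 11.2, 9.97 and 10.6 CPM, and with a floor of 3 reads over the group it was at least 183-fold lower in ATG7KO. RHOD had 156 reads against 0 and was at least 58.7-fold lower. CHMP4C, an ESCRT-III subunit acting at the end of cell division, was at least 44.7-fold lower, and AEBP1, a secreted collagen-binding protein, at least 42.9-fold. LTBR, the lymphotoxin beta receptor, had 233 reads in WT and 1 in ATG7KO (ratio 263, interval 46.7 to 10425). S100A6, a small calcium-binding protein, was even across WT at 9.14, 9.18 and 9.13 CPM and had a single read in each ATG7KO library (ratio 160, interval 54.4 to 780). Further members were PCDHB5, a protocadherin encoded by a single exon (269 reads against 2), MFAP2, a microfibril protein of elastic fibres (197 against 2), and TRO, the adhesion protein trophinin (152 against 3). NMNAT2, an NAD-synthesising enzyme, had 127 reads against 1, and RHOB 108 against 3. GTF2H2, a TFIIH subunit, had 141 against 0, but it has near-identical copies on chromosome 5 and its value is uncertain. These intervals and bounds cover counting error only.

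**Figure D2:**
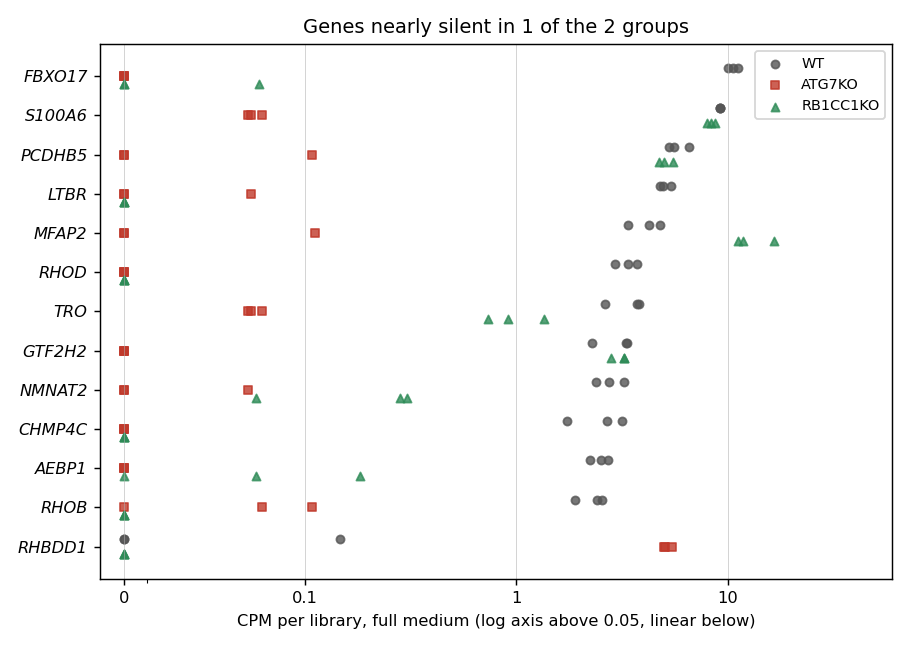
CPM of the 13 genes in each full-medium library of WT (grey circles), ATG7KO (red squares) and the RB1CC1KO-labelled line (green triangles), on an axis that is logarithmic above 0.05 and linear below. In ATG7KO 12 genes lie at or near 0 while RHBDD1 lies near 5 CPM, and the RB1CC1KO-labelled line is near 0 for some of these genes and near WT for others.

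The RB1CC1KO-labelled line was at 0 reads in full medium for LTBR, RHOD, CHMP4C and RHOB, and at 1 read for FBXO17. It was near WT for S100A6 (425 reads), PCDHB5 (259) and GTF2H2 (158), and had 673 reads of MFAP2 against 197 in WT. RHBDD1 had 0 reads there. In EBSS all 13 genes were called again in the same direction, in 6 libraries whose reads did not enter the rule that picked them. Reads went from 581 to 0 for FBXO17 and from 0 to 145 for RHBDD1. The model was fitted to all 18 libraries, so both comparisons shared its scaling and spread.

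The 250 bases before the annotated start are shown for 4 of these genes, as the sequence around the start of genes whose reads appeared or disappeared (RefSeq, GRCh38.p14, strand of the gene). The window of RHBDD1 lies inside the gene as GENCODE draws it, since that model starts further upstream, at 226835581. Capitals mark each CG pair, the site of DNA methylation in mammals. The first 3 are rich in CG pairs and PCDHB5 is poor. Methylation was not measured here.
RHBDD1, chr2:226835804-226836053, plus strand, 33 CG pairs: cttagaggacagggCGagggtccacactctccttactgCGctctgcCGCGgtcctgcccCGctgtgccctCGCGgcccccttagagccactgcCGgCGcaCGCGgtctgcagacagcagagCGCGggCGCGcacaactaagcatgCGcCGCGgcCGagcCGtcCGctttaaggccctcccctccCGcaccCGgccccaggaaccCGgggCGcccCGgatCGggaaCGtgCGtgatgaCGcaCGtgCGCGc
LTBR, chr12:6383912-6384161, plus strand, 27 CG pairs: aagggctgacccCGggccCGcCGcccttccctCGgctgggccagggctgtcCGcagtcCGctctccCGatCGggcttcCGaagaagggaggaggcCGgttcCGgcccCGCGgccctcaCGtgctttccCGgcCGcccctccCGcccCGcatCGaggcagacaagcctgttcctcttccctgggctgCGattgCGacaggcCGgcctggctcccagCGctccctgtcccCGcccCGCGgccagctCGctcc
RHOD, chr11:67056597-67056846, plus strand, 22 CG pairs: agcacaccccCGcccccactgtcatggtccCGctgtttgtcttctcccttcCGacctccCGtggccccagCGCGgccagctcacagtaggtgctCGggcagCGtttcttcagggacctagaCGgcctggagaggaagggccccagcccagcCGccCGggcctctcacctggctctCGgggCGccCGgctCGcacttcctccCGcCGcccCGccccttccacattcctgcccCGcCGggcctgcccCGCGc
PCDHB5, chr5:141134956-141135205, plus strand, 4 CG pairs: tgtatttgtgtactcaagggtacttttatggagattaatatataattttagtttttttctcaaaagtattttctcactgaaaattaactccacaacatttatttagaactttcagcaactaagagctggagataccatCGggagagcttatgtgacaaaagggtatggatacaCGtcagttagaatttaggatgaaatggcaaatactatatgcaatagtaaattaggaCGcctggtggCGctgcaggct
CG reads the same on both strands. Over 35116 such windows of the RefSeq table the median was 11 CG pairs, and 42.9% held at least 15. Of the 10 genes silent in ATG7KO that had a window, 8 had at least 1 window with 15 or more, but 3 of the 10 had 2 windows each, so this count and the share of single windows are not on the same footing. This is a description of the sequence only.

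Genes of the autophagy machinery were called about as often as all genes (10.5%). Of 14 tested genes of ATG8 and ATG12 conjugation 2 were called higher and none lower, apart from ATG7 itself, which was not on that list. The enzymes acting beside ATG7 were not called: ATG3, the E2 for ATG8 proteins, stood at 62.1, 59.0 and 55.0 CPM in WT and 52.7, 57.4 and 51.0 in ATG7KO, and ATG5, ATG10, ATG12, ATG16L1 and MAP1LC3B had adjusted p-values of 0.738 to 0.969. The 2 higher genes were GABARAP and GABARAPL2, and their count fell to 0 without WT replicate 1, without WT replicate 2, and to 1 without ATG7KO replicate 1. Without ATG7KO replicate 2 another member was called lower and neither of them was called. Of 22 genes of initiation and phagophore growth 2 (9.09%) were lower. ATG13, an adaptor of the ULK1 complex, stood at 107, 97.6 and 105 CPM in WT and 87.2, 88.2 and 81.5 in ATG7KO (log2 -0.27, SE 0.06, adjusted p = 0.0022). BECN1, a subunit of the class III PI3-kinase complex, lost its call without WT replicate 2, ATG7KO replicate 2 or ATG7KO replicate 3 (adjusted p up to 0.207).

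None of 19 autophagy receptor genes was called by edgeR or by DESeq2, and 1 had an unadjusted p below 0.05. SQSTM1 (p62), whose protein accumulates when autophagy is blocked and whose RNA is a target of NRF2, had 168, 151 and 163 CPM in WT and 162, 149 and 165 in ATG7KO, so the groups overlapped. Of 22 targets of NRF2, the transcription factor of the antioxidant response, 6 were higher and 1 lower (31.8% called, against 10.5% of all genes). The calls of FTL (ferritin light chain, log2 0.31), NQO1 (a quinone reductase, 0.33) and TXN (thioredoxin, 0.32) held without each library in turn. NQO1 rose from 83.4, 80.0 and 80.2 CPM to 102, 105 and 98.0. The number of NRF2 targets called was 3 without WT replicate 1, 4 without WT replicate 2, 4 without ATG7KO replicate 1 and 3 without ATG7KO replicate 2. Lysosomal genes were near the background with 2 higher and 2 lower of 40, and 1 or 2 of them in all were called without WT replicate 1, ATG7KO replicate 1 or ATG7KO replicate 2.

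Stress programmes are read against the 10.5% of all genes that were called. Of 31 ATF4 targets 3 (9.68%) were higher, among them the amino acid transporter SLC1A4 (log2 0.31) and the lipoprotein receptor VLDLR (0.52), and 5 were called without WT replicate 2. Of 21 genes of the unfolded protein response 2 (9.52%) were lower, HYOU1 and CREB3L2, by 0.21 and 0.24 on the log2 scale in size. Among 31 interferon-stimulated genes 3 were higher and 3 lower (19.4% called). PSMB8, the immunoproteasome subunit, stood apart at 28.9, 27.6 and 22.3 CPM against 11.1, 9.52 and 11.7 in WT (log2 1.30, SE 0.13, adjusted p = 1.1e-09), while STAT2, a transcription factor of the interferon response, was lower (-0.41).

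The 15 largest gains among called protein-coding genes with an average log2 CPM of at least 1 are given next by role, and some less abundant genes had larger fold changes than the last of them. RTL8B, a retrotransposon-derived gene on the X chromosome, stood at 0.219, 0.248 and 0.315 CPM in WT and 42.3, 39.6 and 38.5 in ATG7KO (log2 7.24, SE 0.21, adjusted p = 1.8e-24). Its close copies RTL8A and RTL8C were not called (log2 -0.04 and 0.04), and since reads of such copies can be shared, the level of RTL8B is uncertain. TAFA5, a secreted chemokine-like protein of the brain, rose from 1.10, 0.744 and 0.945 CPM to 25.8, 26.4 and 33.9 (log2 4.97, SE 0.19). TCEAL9, a small nuclear protein on the X chromosome, rose from 3.65, 3.62 and 4.49 CPM to 51.0, 57.3 and 52.7 (3.79). No other gene among 13 tested of the TCEAL, BEX and RTL8 families was called.

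EHD3, which acts in endocytic recycling, had 0.439, 0.843 and 0.315 CPM in WT and 9.57, 9.35 and 9.36 in ATG7KO. Its log2 difference was 4.02, or 4.61 without WT replicate 2. EGFR, the epidermal growth factor receptor, was nearly off in WT at 0, 0.546 and 0.315 CPM and on in ATG7KO at 3.01, 2.97 and 4.55 (log2 3.42, SE 0.43, adjusted p = 3.6e-07, and 4.45 without WT replicate 2). TIAM1, an activator of the GTPase Rac, rose by 3.22, and S1PR3, a receptor for sphingosine 1-phosphate, by 2.42. Genes known from neurons included GABRA5, a GABA-A receptor subunit, at 5.04, 5.70 and 6.93 CPM against 31.4, 31.7 and 33.1 (log2 2.45), and the synaptic adhesion gene LRRC4B (2.74). RHBDD1 (6.66), described above, was also among the 15 largest gains. The potassium channel gene KCNJ12 rose by 3.02, a value that is uncertain because of a near-identical copy. The remaining genes of the 15 were TMEM132E (3.08), ELAPOR2 (2.93), the zinc finger gene ZNF329 (2.87) and the homeobox gene NKX2-4 (2.74). In each of the 15 genes the 3 ATG7KO libraries lay above all 3 WT libraries, which the naming rule required. Within that abundance limit the fifteenth gene stood at 2.42 and the sixteenth at 2.30. TAFA4 (4.24) and SPRY4 (2.65) were among the higher genes below the limit.

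The 15 largest losses under the same abundance limit included matrix, surface and adhesion genes. COL11A1, a fibrillar collagen chain, fell from 74.7, 80.6 and 90.7 CPM to 0.390, 0.324 and 0.125 (log2 -8.13, SE 0.17, adjusted p = 2.9e-29). GALNT5, which starts mucin-type O-glycosylation, fell from 32.5, 31.3 and 34.0 CPM to 0.445, 0.378 and 0.0624 (-6.70). CHL1, an L1-family adhesion molecule, fell from 18.1, 20 and 21.0 CPM to 0.278, 0.0541 and 0.125 (-6.94, or -7.70 without ATG7KO replicate 1). CHFR, a ubiquitin ligase of a mitotic checkpoint, stood at 7.31, 6.30 and 6.46 CPM in WT and at 0.0557, 0.162 and 0.125 in ATG7KO (-5.77). FCGRT, the neonatal Fc receptor that recycles IgG and albumin, was lower by 5.41, and the synaptic protein SLITRK3 by 5.59. ZNF544 (-5.83), CGREF1 (-4.89, or -5.55 without ATG7KO replicate 1), ZNF518B (-4.33) and SETBP1 (-4.32) completed the 15, together with FBXO17, LTBR, S100A6, PCDHB5 and MFAP2 described above. The fitted values of LTBR (-7.54), PCDHB5 (-6.98) and MFAP2 (-6.51) moved to -9.31 without ATG7KO replicate 1, -9.51 without ATG7KO replicate 2 and -9.05 without ATG7KO replicate 1, since these libraries held all of their reads in that line. Within the limit the fifteenth loss was -4.32 and the sixteenth -4.21. Less abundant genes with larger fitted losses included RHOD (-8.73), CHMP4C (-8.34) and CDH13 (-7.54).

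Collagens and other matrix genes were called in both directions. Of 23 tested collagen chains 8 were lower and 2 higher, and of 30 matrix and microfibril genes 11 were lower and 7 higher, against 6.07 and 4.47% of all genes. Among the lower ones, COL9A1, a cartilage collagen chain, fell from 1.68, 1.74 and 2.44 CPM to 0.0557, 0.0541 and 0.0624 (log2 -4.90), and COL5A2 was lower by 0.49. POSTN, a matricellular protein, fell from 3.95, 5.26 and 4.25 CPM to 0.890, 0.973 and 0.811 (-2.33). THBS2, an inhibitor of angiogenesis, was at 99.99, 102 and 105 CPM in WT and 47.6, 52.6 and 49.1 in ATG7KO (-1.04). Its paralogue THBS1 went the other way, from 4.82, 4.81 and 4.49 CPM to 15.9, 14.7 and 14 (1.65, adjusted p = 6.8e-09). The fibrillin FBN1 was higher by 0.87, the collagen-binding protein SPARC by 0.58 and the basement membrane chain COL4A6 by 0.80. The summed CPM of the matrix list overlapped between the groups (1874 to 1921 in WT, 1857 to 1971 in ATG7KO).

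Adhesion and guidance genes were also called in both directions. Over all genes tested, 6.07% were lower and 4.47% higher. Of 40 adhesion genes 11 were lower and 6 higher, and of 46 axon guidance genes 10 were lower and 6 higher. DESeq2 called 9 guidance genes lower and 3 higher, and 2 to 4 were higher when single libraries were left out. CDH13, a lipid-anchored cadherin, had 1.83, 1.14 and 1.5 CPM in WT and none in ATG7KO. CNTN1, a contactin, fell from 5.70, 5.95 and 5.67 CPM to 0.223, 0.216 and 0.499 (log2 -4.21). CADM1 was lower by 1.70 and CNTNAP2 by 1.44, while NRCAM, a relative of CHL1, was higher by 1.10. Among guidance molecules the ligands SEMA6D (-2.07) and SLIT3 (-1.31) and the receptors EPHA3 (-1.51), NRP1 (-0.75) and ROBO1 (-0.45) were lower, and the semaphorin receptor PLXNC1 was higher (0.69). EPHA3 stood at 38.7, 42.8 and 39.4 CPM in WT and 14.1, 15.4 and 13.1 in ATG7KO. Of 7 non-clustered protocadherins 2 were lower, PCDH7 (-3.61) and PCDH11X (-3.32), and 2 higher, PCDH19 (0.46) and PCDH18 (0.25). Neither higher call held without WT replicate 1 or ATG7KO replicate 1, and PCDH19 also lost its call without WT replicate 3 or ATG7KO replicate 3 (adjusted p up to 0.123). Of 49 WNT and BMP genes 7 were lower and 8 higher. The losses included the ligands BMP7 (26.0, 22.9 and 26.1 against 6.73, 6.00 and 7.42 CPM, log2 -1.89), BMP2 (-3.81), WNT3 (-0.94) and WNT5A (-0.49) and the WNT antagonist DKK1 (-3.45, or -4.61 without ATG7KO replicate 2). SFRP1, another WNT antagonist, was higher (0.89).

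Several epithelial markers were lower and several mesenchymal ones higher. Among all genes tested 6.07% were lower and 4.47% higher. Of 11 tested epithelial markers 6 were lower and none higher, and their summed CPM was 124 to 137 in WT and 82.8 to 84.3 in ATG7KO. In bulk RNA fewer cells of a kind and less RNA per cell cannot be told apart. EPCAM, an epithelial adhesion molecule, fell from 3.73, 3.17 and 2.6 CPM to 0.0557, 0.270 and 0.125 (log2 -4.31, or -5.05 without ATG7KO replicate 2). KRT8 was lower by 1.80 and its keratin partner KRT18 by 0.38. ESRP1, the epithelial splicing regulator, stood at 14, 14.4 and 14 CPM against 9.18, 9.35 and 7.74 (-0.69), and OVOL2, a transcription factor that maintains epithelial identity, at 1.75, 1.19 and 0.866 against 0.167, 0.108 and 0.312 (-2.68). TJP3 lost its call without ATG7KO replicate 1 (adjusted p = 0.0541). ZEB1, a repressor of epithelial genes, rose from 27.9, 27.3 and 28.3 CPM to 46.0, 44.2 and 41.6 (0.66, adjusted p = 1.4e-07). VIM, the mesenchymal intermediate filament, rose from 544, 530 and 506 CPM to 782, 743 and 812 (0.57), and PDGFRA by 0.63. The change was not uniform: of 15 mesenchymal markers 6 were higher and 2 lower, the lower ones being FN1 (-0.42) and THY1 (-3.27), and CDH2 was not called.

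The lists that follow are read against the 6.07% of all genes tested that were lower and the 4.47% that were higher. Of 13 tested markers of blood-forming cells 5 were lower and 1 higher, and the summed CPM of the list was 147 to 160 in WT and 102 to 106 in ATG7KO. TAL1, a transcription factor of blood stem cells, stood at 36.1, 41.1 and 34.6 CPM in WT and 9.41, 10.9 and 9.48 in ATG7KO (log2 -1.91, SE 0.10). KIT, the stem cell factor receptor, fell from 10.5, 12.2 and 10.1 CPM to 2.23, 1.84 and 2.00 (-2.44). RUNX1, CD44 and MYB were lower by 0.71, 1.30 and 0.51. The gene called higher, IKZF1, had at most 0.890 CPM and lost its call without WT replicate 1, WT replicate 3 or ATG7KO replicate 1 (adjusted p up to 0.0781), and its log2 value of 2.4 became 3.96 without WT replicate 2. Among 16 neuronal markers SYT1, a calcium sensor of synaptic vesicles, was lower (-2.88), and GAP43 (2.17) and ELAVL2 (0.49) were higher. Of 26 HOX genes, which encode position along the body axis, 6 were higher and 2 lower. HOXD13 rose from 17.4, 15.2 and 16.1 CPM to 53.3, 48.3 and 56.6 (1.70) and HOXC11 by 1.54, while HOXC10 fell from 8.26, 6.85 and 6.61 CPM to 2.56, 2.32 and 2.18 (-1.61) and HOXA13 by 0.31. Of 18 imprinted genes 4 were higher, among them DLK1 (1.69) and MEST (1.08), and H19 was lower (-0.49). H19 lost its call without WT replicate 1 or ATG7KO replicate 2 (adjusted p up to 0.0580). The count of 5 called was 2 without WT replicate 1 or ATG7KO replicate 2. PRAME, a cancer-testis antigen, was higher by 1.39 and DAZL, a germ-cell RNA-binding protein, lower by 0.57.

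Some genes that respond to the ERK kinase cascade were higher in full medium. SPRY4, an inhibitor of receptor tyrosine kinase signalling that ERK itself induces, stood at 0.365, 0.198 and 0.157 CPM in WT and 1.34, 1.57 and 1.68 in ATG7KO (log2 2.65, SE 0.37, adjusted p = 1.5e-06). The ERK phosphatase gene DUSP4 rose from 1.02, 1.64 and 1.97 CPM to 3.67, 3.95 and 3.24 (1.23), and the transcription factor ETV5 from 2.12, 1.34 and 1.18 to 3.95, 4.43 and 3.93 (1.42). PHLDA1 was at 16.4, 16.9 and 18 CPM against 28, 25.4 and 28.4 (0.68), and EGR1 at 8.48, 6.00 and 8.82 against 11.3, 13 and 10.7 (0.62). DUSP6, chosen after its values were seen, was higher by 1.07 and lost the call without ATG7KO replicate 3 (adjusted p = 0.0849). The wider list did not move as a block: of 36 immediate early genes 6 were higher and 3 lower, NR4A2 among the latter (-0.81), and the median was -0.004. SPRY2, SPRY1, SPRED1, SPRED2, DUSP5 and FOSL1 were not called.

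After 6 h of EBSS several of these genes were called in the other direction. EGFR was higher there as in full medium (3.87), and NR4A2 was again lower (-0.90). SPRY4 was lower in ATG7KO (8.09, 6.88 and 7.43 CPM in WT against 4.91, 4.55 and 5.09, log2 -0.63). PHLDA1 was also lower (-0.79), as were EGR1 (-0.32) and DUSP6 (-1.21). These are differences between lines within EBSS. From full medium to EBSS the mean CPM of EGR1 rose in both lines, from 7.77 to 1795 in WT and from 11.6 to 1442 in ATG7KO. For SPRY4 the means went from 0.240 to 7.47 and from 1.53 to 4.85. DUSP6 went from 1.12 to 6.01 and from 2.41 to 2.67. PHLDA1 rose in WT (17.1 to 37.3) but not in ATG7KO (27.3 to 21.5). The difference between media was itself called for SPRY4 (-3.28, SE 0.41, adjusted p = 4.4e-06), PHLDA1 (-1.47), EGR1 (-0.94), DUSP6 (-2.28) and DUSP4 (-1.16), the last with an adjusted p of 0.0465 that missed the threshold when any of 10 of the 12 libraries was left out (up to 0.185). For ETV5 it was not called (-1.03, adjusted p = 0.113). Over all genes tested 160 (1.05%) had a called difference between media. In EBSS 18 of the 36 immediate early genes were lower in ATG7KO and 1 was higher, where 7.17% of all genes were lower and 6.07% higher.

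Targets of YAP and SRF, transcriptional regulators that respond to cell shape and actin, included more higher than lower calls in full medium. Of 25 tested 11 were higher and 1 lower (4.47 and 6.07% of all genes), and 7 higher and none lower without ATG7KO replicate 1. The summed CPM of the list ran the other way, at 13463 to 14262 in WT and 12710 to 13078 in ATG7KO. CCN1, a secreted matricellular protein, stood at 117, 117 and 115 CPM in WT and 179, 176 and 178 in ATG7KO (log2 0.61, SE 0.06, adjusted p = 9.9e-10). CCN2 was at 16.9, 17.8 and 20.3 against 29.4, 25.7 and 30.4 (0.64). In EBSS 6 of the 25 were higher and 5 lower, where 6.07% of all genes were higher and 7.17% lower. There both genes were lower in ATG7KO (-0.46 and -0.76), with called differences between media of -1.07 and -1.39. AXL, a receptor tyrosine kinase, was higher in full medium (0.80) and in EBSS (1.49), and CRIM1 was higher by 0.37 and 0.39. The actin-binding TPM1 was higher in full medium (0.33).

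**Figure D3:**
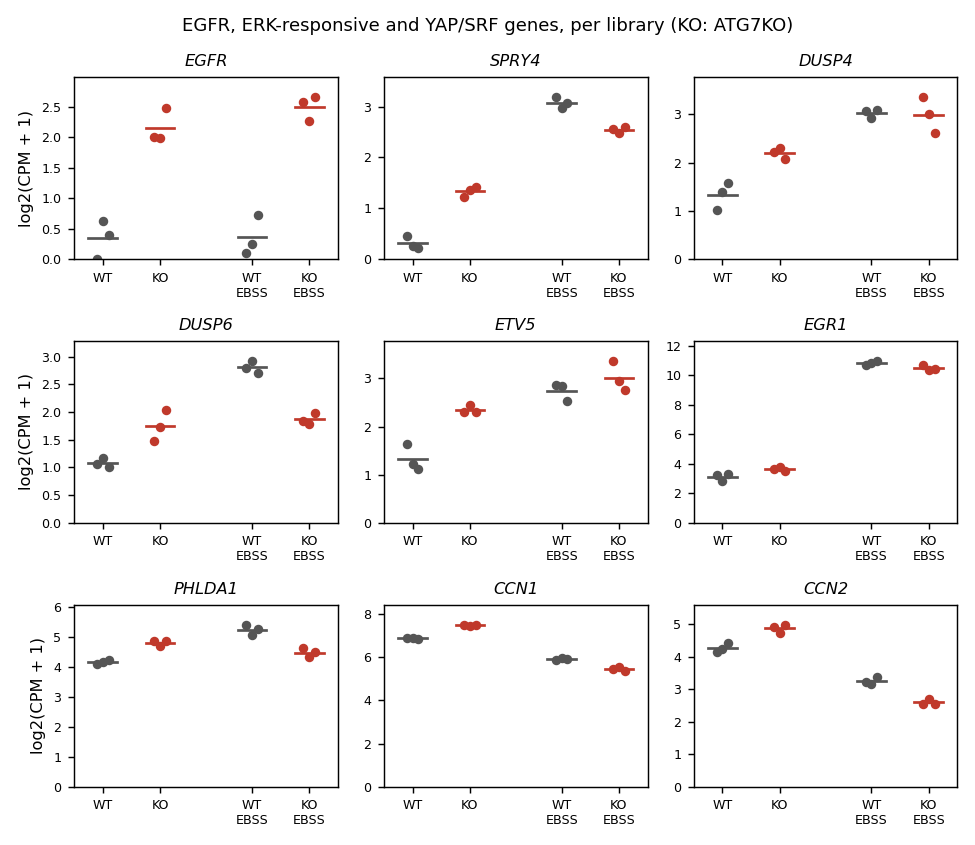
Each panel shows log2(CPM + 1) of a gene in the 3 WT (grey) and 3 ATG7KO (red) libraries in full medium on the left and EBSS on the right, with lines at the means. EGFR is higher in ATG7KO in both media, while SPRY4, PHLDA1, EGR1, DUSP6, CCN1 and CCN2 are higher in ATG7KO in full medium and lower in EBSS.

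Some ribosomal protein and respiratory chain genes were higher by small amounts. Over all genes 4.47% were higher and 6.07% lower. Of 81 tested cytosolic ribosomal protein genes 14 were higher and none lower, and of 77 nuclear genes of oxidative phosphorylation 15 were higher and none lower. Members whose call held in all omissions included RPS7 (log2 0.57), RPL38 (0.52), RPL37 (0.37), NDUFA1 (0.59), COX7B (0.41) and ATP5MC2 (0.32). RPS7 rose from 268, 313 and 260 CPM to 405, 396 and 447. These counts were unstable: the ribosomal count was 4 without WT replicate 1, 7 without WT replicate 3, 6 without ATG7KO replicate 1 and 7 without ATG7KO replicate 2, and the oxidative phosphorylation count was 8, 7, 7 and 8 without the same libraries. In EBSS 1 ribosomal gene was higher and 1 lower, and 1 respiratory gene was higher, where 6.07% of all genes were higher and 7.17% lower. Of 10 equal classes of protein-coding genes by exon length, the shortest (207 to 2243 bases) was the one with more higher than lower calls (74 against 30). It held 9 of the 15 called respiratory genes and 2 of the 14 called ribosomal genes. The part of transcript length in these results was not tested. None of 13 mitochondrially encoded mRNAs was called by edgeR or DESeq2, and none had an unadjusted p below 0.05. Their median log2 fold change was -0.18, and their summed CPM did not overlap (19680 to 22698 in WT, 17029 to 17354 in ATG7KO).

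Over all genes tested 10.5% were called, 4.47% higher and 6.07% lower. The share called was 2.5% for genes of G1/S and replication and 12.9% for genes of G2/M. It was 7.69% for p53 targets and CDK inhibitors and 12% for cholesterol genes. Of 40 genes of G1/S and replication 1 was higher, and this count lay between 0 and 2 when single libraries were left out. Of 31 genes of G2/M 4 were lower, among them the phosphatase CDC25B (180, 154 and 168 against 143, 135 and 124 CPM, log2 -0.32), the kinase PLK1 (-0.26) and CHFR. None of 21 replication-dependent histone genes was called by edgeR or DESeq2, and 1 had an unadjusted p below 0.05. Their fitted log2 values were all positive (0.13 to 1.20, median 0.34). Levels of histone genes in these libraries of polyadenylated RNA were low, which limits both results. Of 39 entries 16 were at 0 in all 6 libraries, and the summed CPM was 72.7 to 105 in WT and 93.5 to 138 in ATG7KO. Of 26 p53 targets and CDK inhibitors 2 were higher (RRM2B and CCNG1). The count was 0 without WT replicate 1, and 1 without WT replicate 3, ATG7KO replicate 1 or ATG7KO replicate 2. BCL2, an inhibitor of apoptosis, was higher (16.1 to 18.6 against 23.1 to 25.4 CPM, 0.47). MVD, an enzyme of cholesterol synthesis, was lower (-0.49), and 3 of 25 genes of that pathway were lower in all, or 1 without WT replicate 1, WT replicate 3, ATG7KO replicate 1 or ATG7KO replicate 2.

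Solute carriers were near the background of 10.5% of all genes called, with 14 higher and 13 lower of 243. The count was 16 or 17 in all without WT replicate 1 or ATG7KO replicate 1. The thiamine transporter SLC19A3 was at 0.365, 0.794 and 0.630 CPM in WT and at 0 in ATG7KO. The amino acid transporter SLC7A8 was lower by 1.47 and SLCO4C1 by 2.31. SLC44A5 was higher by 1.48 and the lactate transporter SLC16A3 by 0.74 (28.9, 24.6 and 25.1 against 44.6, 39.0 and 47.5 CPM). Among zinc finger genes of chromosome 19 only 3 were higher and 2 lower of 187, but most of those changes were more than 2-fold. Besides ZNF544 and ZNF329, ZNF492 fell from 4.61, 4.46 and 6.06 CPM to 0.390, 0.162 and 0.250 (-4.19), and ZNF841 rose by 1.34. ZNF599 rose by 0.79 and lost its call without WT replicate 1, 2 or 3 or ATG7KO replicate 2 (adjusted p up to 0.094). Upper-quartile scaling called 6 of the 187 higher and 2 lower. S100A10 (0.50) and S100A11 (0.71) were higher while S100A6 was nearly silent.

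**Figure D4:**
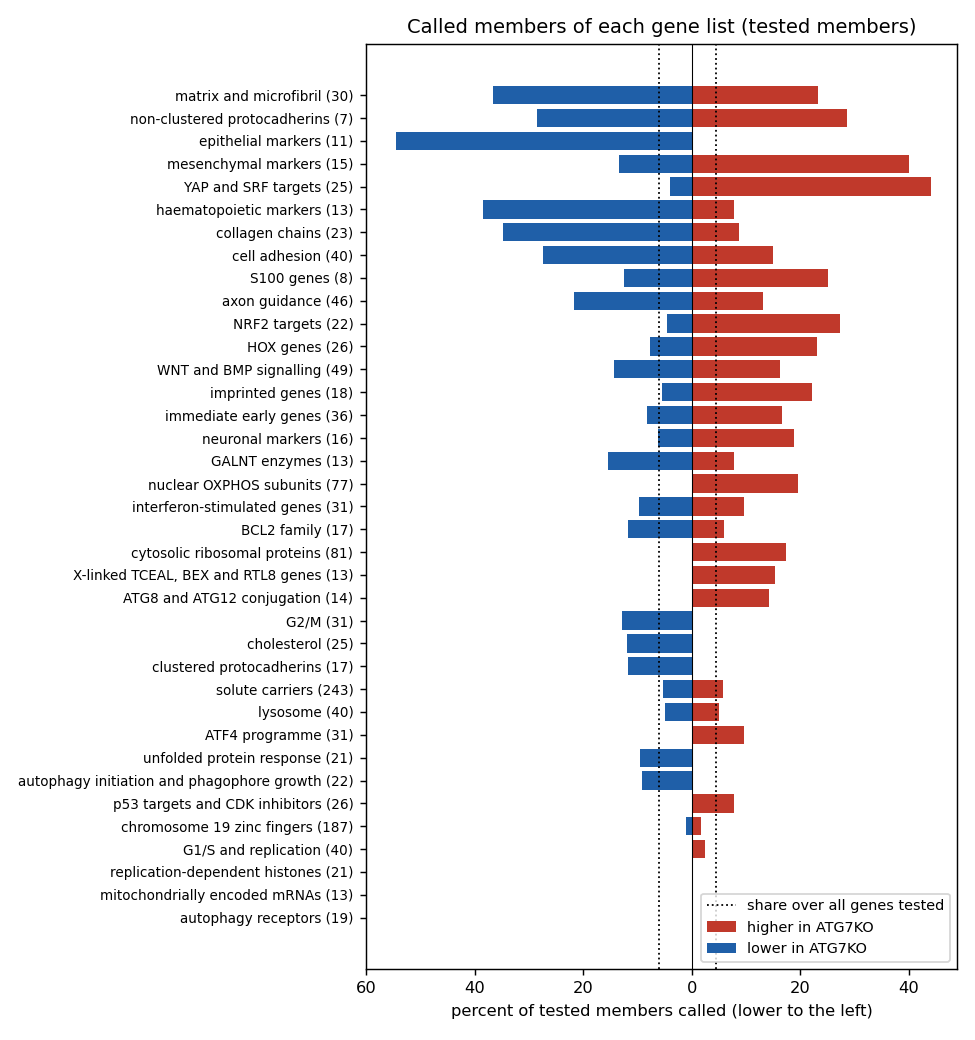
Bars show the percent of tested members of each gene list called higher (red, right) or lower (blue, left) in ATG7KO in full medium, with the number tested in brackets, and dotted lines mark the shares over all genes tested (4.47% higher, 6.07% lower); the cancer-testis list, with 4 tested members, is not drawn. Epithelial, haematopoietic, matrix and collagen lists reach furthest to the left, and YAP and SRF targets and mesenchymal markers furthest to the right.

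Some called genes were neighbours on the chromosome. There were 13 runs of 3 or more adjacent tested protein-coding genes called in the same direction, 8 lower and 5 higher, with 41 genes in all. Of the 12834 protein-coding genes tested 642 were called higher and 870 lower. How many such runs a random gene order would give was not tested. On chromosome 4 NSG1, STX18 and MSX1 were lower by 0.80, 1.64 and 0.91. STX18, a syntaxin of the endoplasmic reticulum, stood at 103, 106 and 110 CPM in WT and 31.1, 37.1 and 34.4 in ATG7KO. Elsewhere on chromosome 4 FGF5, BMP3 and RASGEF1B were higher by 2.70, 2.80 (2.03 without WT replicate 2) and 1.89, all from low levels. On chromosome 15 RAB8B (0.30), APH1B (0.46) and their neighbours RPS27L and USP3 were higher, of which RPS27L and USP3 lost the call without ATG7KO replicate 3 (adjusted p up to 0.180 for RPS27L and 0.0742 for USP3), and RPS27L also without 4 of the others. On chromosome 2 GALNT5 lay in a run with NR4A2 (-0.81), GPD2 and ERMN, and the calls of GPD2 and ERMN were lost without WT replicate 3 or ATG7KO replicate 3 (adjusted p up to 0.0931 and 0.0996), that of ERMN also without WT replicate 2. HOXD13, HOXD8 (0.75) and HOXD3 formed a run, and HOXD3 lost its call without any of 5 libraries (adjusted p up to 0.239).

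The surroundings of RHBDD1 on chromosome 2, chosen after the values were seen, held called genes on both sides and in both directions. In order along the chromosome, IRS1, an insulin receptor substrate, was higher (5.44 ± 0.714 against 10.0 ± 1.51 CPM, SD, n = 3, log2 0.88), RHBDD1 was switched on, and COL4A4 (-1.15), COL4A3 (-1.43) and the mitochondrial fission factor MFF (-0.40) were lower. COL4A4 and COL4A3 encode basement membrane chains and are transcribed in opposite directions from a shared start region. COL4A4 stood at 20.9, 25.1 and 25 CPM in WT and 10.5, 10.6 and 11 in ATG7KO. The nearest tested genes outside, CUL3 and AGFG1, were not called (log2 -0.04 and 0.08). In EBSS all 5 were called in the same directions (IRS1 0.86, RHBDD1 9.03, COL4A4 -1.23, COL4A3 -1.52, MFF -0.33). In the RB1CC1KO-labelled line, compared with the same WT libraries, the log2 values were -0.05 for IRS1, -0.20 for COL4A4, 0.02 for MFF and -1.61 for COL4A3, and only the last was called.

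The EBSS libraries gave a second comparison of the lines in separate libraries. There 2010 genes (13.2%) were called. Of the 678 genes higher in full medium 331 were called higher again and 13 lower, and of the 921 lower genes 459 were called lower again and 5 higher. The 790 genes called the same way make up 49.4% of the calls in full medium and 39.3% of those in EBSS. Among genes of at least 4-fold, 40 of 54 higher and 107 of 123 lower were called the same way in EBSS, and 1 and 0 the other way. TAFA5 differed by 4.06 in EBSS, RTL8B by 5.70, TCEAL9 by 3.20, COL11A1 by -9.0 and GALNT5 by -6.69.

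**Figure D5:**
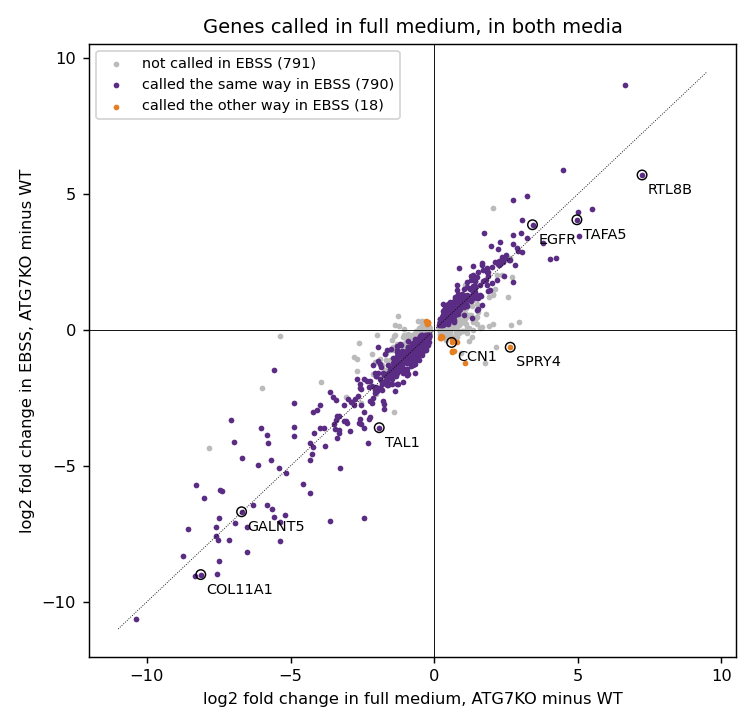
The 1599 genes called in full medium, with their log2 fold change (ATG7KO minus WT) in full medium on the x axis and in EBSS on the y axis, and the dotted line marking equal values. The 790 purple points were called the same way in EBSS, the 18 orange points the other way, and the grey points were not called there. COL11A1 lies at the lower left and TAFA5 at the upper right.

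The RB1CC1KO-labelled line shares the WT libraries of full medium, so its differences (2606 genes called, 17.2%) are given only beside those of ATG7KO. COL11A1 was at 0.280 ± 0.138 CPM in ATG7KO and 0.0991 ± 0.0718 in the RB1CC1KO-labelled line (SD, n = 3), and ZNF544 at 0.130 ± 0.0786 and 0.0587 ± 0.00221. TCEAL9 was at 53.7 ± 3.27 and 58.4 ± 9.46 CPM. The 2 lines themselves differed at 3249 genes (21.4%) in full medium, and neither COL11A1 (adjusted p = 0.0963) nor TCEAL9 (0.470) was among them. Other genes stood apart: TAFA5 was at 28.7 ± 4.52 CPM in ATG7KO, 0.928 ± 0.177 in WT and 0.0197 ± 0.0340 in the RB1CC1KO-labelled line, and S100A6 and GALNT5 were near WT in that line (8.31 ± 0.370 and 29.4 ± 1.26 CPM). TAL1 was at 9.92 ± 0.822, 37.3 ± 3.43 and 51.5 ± 2.83 CPM in the same order. In EBSS libraries of the RB1CC1KO-labelled line against WT, of the 123 genes at least 4-fold lower in ATG7KO 66 were called lower and 19 higher, and of the 54 at least 4-fold higher 8 were called higher and 9 lower. These counts use WT libraries other than those of full medium, but the same WT line. The share of all genes called in that EBSS comparison was not worked out, so the counts stand without a background.

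Across the 18 libraries, which share 3 lines and 2 media, the genes whose log2(CPM + 1) most resembled that of TAFA5 were TMEM132E (r = 0.989), PHACTR3 (0.984), TAFA4 (0.983), DPYSL3 (0.982) and RTL8B (0.982). TAFA4, a relative of TAFA5, was higher in ATG7KO by 4.24 and DPYSL3, a protein of growing neurites, by 1.34. For COL11A1 they were FBXO17 (0.998), LTBR (0.995), CDH13 (0.990), HACD4 (0.988) and RHOD (0.986), all at or near 0 in both knockout-labelled lines. The correlations are a description.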

How the data were processed

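Per the labels' protocols, polyadenylated RNA was made into directional libraries and read from 1 end over 75 bases. The authors deposited whole-number read counts per gene, not normalized, as 1 table per library with 63677 Ensembl identifiers. Per the submitters' processing notes, tools without a stated role were HTSeq 0.6.1p1, STAR 2.4.2a and Picard, with edgeR and DESeq2, and the build was GRCh37. The sources used here give neither strand setting nor annotation release, so reads of overlapping or antisense genes cannot be told apart with certainty. Names, chromosomes and gene order came from GENCODE 29 (GRCh38), which matched 52526 identifiers, and promoter windows from RefSeq (GRCh38.p14). The summary lines of each table (reads in no gene were 11.2 to 15.1% in the 6 libraries) stayed out of library sizes and tests.

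Genes were filtered with edgeR 4.0.16 (filterByExpr over 6 groups), scaled with TMM and fitted in 1 quasi-likelihood model with robust spread over all 18 libraries in R 4.3.3. Adjusted p-values are Benjamini-Hochberg values over the 15179 genes tested, from edgeR's quasi-likelihood F test. The standard error of a log2 fold change is its size divided by the square root of F. CPM are TMM-scaled. The alternatives were upper-quartile scaling, DESeq2 1.42.0, no filter, only the groups compared, a replicate block and leaving out each library.

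The members and the 38 gene lists were chosen with earlier results of these data known. Of 856 entries written out, NEFL had no match. Named genes were ATG7, TAFA5, COL11A1 and TAL1, and the 15 protein-coding genes of largest fold change in each direction whose average CPM had a log2 of 1 or more and whose groups did not overlap. Further named genes had at most 3 reads in 1 group and at least 100 in the other, were up to 6 called members of a list by p, or lay in the 6 longest runs of neighbours. For TAFA5 and COL11A1 the 5 most correlated genes were added. The text gives values for a part of these, mostly calls kept without each library.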

Additional observations from a re-analysis of the deposited data

Results flagged for a closer look

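Among ATG7 and the 192 other named genes, 16 had a difference between ATG7KO and WT that itself differed between EBSS and full medium. The test was that of the difference between media in the same model (log2, EBSS minus full medium). Over all genes tested 1.05% had such a call. DUSP6 was among the 16 but was chosen after its values were seen. ATG7 (1.33) and STX18 (0.92) were less reduced in EBSS, with log2 values of -0.62 and -0.72 there against -1.95 and -1.64 in full medium. TAL1 (-1.68) was more reduced, at -3.60 against -1.91, and so was NSG1 (-0.42). NKX2-4 (2.02) had a larger gain, at 4.77 against 2.74. SPRY4 (-3.28), DUSP6 (-2.28), PHLDA1 (-1.47), CCN2 (-1.39), CCN1 (-1.07), EGR1 (-0.94) and PCDH18 (-0.55) were higher in ATG7KO in full medium and lower in EBSS. The call of PCDH18 in full medium was lost without WT replicate 1 or ATG7KO replicate 1 (adjusted p up to 0.0570), and that of DUSP6 without ATG7KO replicate 3 (0.0849). DUSP4 (-1.16), TXN (-0.45), VLDLR (-0.43) and RAB8B (-0.41) were higher in full medium and not called in EBSS.

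The difference between media was called in every setting tried for 10 of the 16 genes. The other 6 lost it when single libraries of the 12 were left out. DUSP4 lost it for 10 libraries (adjusted p 0.0553 to 0.185), VLDLR for 9 (0.0505 to 0.161), NKX2-4 for 8 (0.0642 to 0.143), NSG1 for 8 (0.0503 to 0.1) and TXN for 5 (0.0502 to 0.101). RAB8B lost it without ATG7KO replicate 2 of full medium (0.0507) or ATG7KO EBSS replicate 3 (0.0506). That last library was the shallowest, with 4892072 reads in genes.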

How the results depend on the processing

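Of the counts over all genes, the number whose difference changed between media moved by more than 1.5 times, and counts within single gene lists that did so are given with those lists: 160 in the fit reported, 281 with no filter on low counts, 293 with the replicate block and 71 to 275 without single libraries. The cause was not tested. The 1599 genes called in full medium became 1562 to 1908 under the other settings and 1070 to 1464 without single libraries. Those of at least 2-fold stayed within 384 to 453 and the calls shared with EBSS within 659 to 861. ATG7 kept its call throughout (log2 -2.04 to -1.89). Of 192 named genes besides ATG7, none reversed, 191 of 192 kept the call with DESeq2, 183 of 192 with no filter and 186 of 189 in a fit of the groups compared, and 148 without each of the 6 libraries in turn. Upper-quartile scaling and the replicate block changed no named call. Deviations of same-numbered WT and ATG7KO libraries from their group means correlated at 0.003, 0.025 and -0.084 in full medium. The replicate block called 1863 genes against 1599 in the fit reported. Same-numbered libraries were not compared between media or with the RB1CC1KO-labelled line, so whether replicate numbers pair the samples was not settled. Depth limits genes under about 1 CPM, where single reads decide the fold change.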
